A study of Homo sapiens with 6 samples.

Results

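Replication-dependent histone genes were examined in U251 cells, an established human glioma line, grown on nanofibers of the polyester poly-caprolactone that lay either aligned or in random directions. Members were all probe sets of the deposited table whose platform annotation gives 1 gene symbol beginning with H1-, H2AC, H2BC, H3C or H4C, with no limit on signal. This gave 58 of 54675 probe sets, for 50 genes: 14 probe sets for the linker histone H1, 11 for H2A, 15 for H2B, 8 for H3 and 10 for H4. The symbols also take in transcripts that do not follow DNA replication. H1-10 is a linker histone made outside S phase, H1-6, H1-7, H1-8 and H2BC1 belong to germ cells, H1-10-AS1 is a noncoding antisense RNA, and H1-9P, H2AC5P and H4C10P are pseudogenes. In RefSeq, 42 of the 50 genes lie on chromosome 6, where most human histone genes are clustered.

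Both groups came from the same line, in medium with 10% fetal bovine serum and without further treatment, and RNA was taken 24 h after plating. There were 3 arrays from aligned and 3 from random fibers, each from an independent culture according to the design text, and no culture off fibers is among the samples used here. Values are log2 RMA signals of Affymetrix HG-U133 Plus 2 arrays, so a difference of 1 is a doubling. The comparison asks which transcripts follow the topography of the substrate.

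Core histones H2A, H2B, H3 and H4 form the spool around which DNA is wound, and H1 binds the linker between spools. New DNA needs new histones, so these genes are transcribed mostly in S phase under NPAT, which cyclin E with CDK2 activates, and their mRNAs are destroyed when replication ends. Most of these mRNAs end in a stem-loop bound by SLBP instead of a poly(A) tail. The labels name the standard Affymetrix labelling, which primes on poly(A), so a histone mRNA without a tail is read poorly by this method, and a low signal is no measure of the total histone mRNA. A difference in these bulk cultures can come from the share of cells in S phase or from the mRNA per cell. It can also come from the share of histone mRNA that carries a poly(A) tail, and these cannot be told apart.

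Aligned 3 stood apart from the other arrays. Over 54613 probe sets it lay at a root mean square distance of 0.31 from the mean of the 3 random arrays, and aligned 1 and aligned 2 lay at 0.18. Each random array was set against the mean of the other random arrays instead, and these distances were 0.17 to 0.20. As a sign of RNA quality, GAPDH probe sets at the 3' end read 0.14 ± 0.04 above those at the 5' end for aligned fibers and 0.10 ± 0.02 for random ones (SD, n = 3). For ACTB the same measure was 0.15 ± 0.06 and 0.20 ± 0.03, and the 18S signal was 9.12 ± 0.63 and 8.77 ± 0.37 (SD, n = 3), highest on aligned 3 at 9.78. Exact two-sided permutation tests gave p = 0.3, 0.3 and 0.5, where 0.1 is the smallest this design allows. Of the glial and glioma markers, VIM, NES, SOX2, CD44 and EGFR lay above the array median on all 6 arrays, GFAP did so on 3, S100B on 2 and AQP4 on none. The summed log2 signal of these 8 was 69.5 to 72.8 on aligned and 72.2 to 74.5 on random fibers. Of the 8, 4 had an unadjusted limma p under 0.05, against 8.91% of all genes by 1 probe set each. Aligned minus random was -1.13 for S100B, -0.81 for GFAP and -0.44 for SOX2, but 0.45 for EGFR. At least 3 arrays exceeded their median for 0 of 4 epithelial, 1 of 3 oligodendrocyte, 1 of 4 leukocyte and microglia, 3 of 4 endothelial and 4 of 4 neuronal markers. Summed signals of 4 neuronal markers were 27.1 to 28.2 on aligned and 26.4 to 27.1 on random fibers, and those of the leukocyte and microglia markers were 19.9 to 20.2 and 19.3 to 19.7. At the unadjusted limit stood 1 of 4 neuronal markers, SYT1 with a difference of 0.56, and 0 of 4 leukocyte and microglia markers. The part of these differences in the histone values was not tested.

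Most histone probe sets were dim. Between 13 and 16 of the 58 lay above the median of a given array, and 15 did so on at least 3 of the 6 arrays, which is called above the medians here. Those 15 stood for 14 genes: H1-2, H1-3 and H1-10, H2AC4, H2AC6, H2AC14 and H2AC25, H2BC5, H2BC6, H2BC9, H2BC12 and H2BC12L, H3C8, and H4C9. The other 43 probe sets stood for 37 genes.

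The 15 H2B probe sets had a median log2 difference between aligned and random fibers of -0.27, with 11 negative and 4 positive. This was -0.36 over the 6 above the medians and -0.01 over the 9 dimmer ones. Probe sets of the other classes had a median of 0.01 over 43 and of -0.11 over the 9 above the medians, of which 5 were negative and 4 positive. Of those 4, H1-3 counts there through the 3 aligned arrays alone, and H2AC4 through aligned 1, aligned 2 and random 3. The 4 H2A probe sets above the medians had a median of -0.14. The difference between classes was not tested. The suffixes _x_at and _s_at mark probe sets with shared sequence, and 6 of 15 H2B probe sets carry them. So do 1 of 14 for H1, 3 of 11 for H2A, 2 of 8 for H3 and 2 of 10 for H4. These 14 had a median of -0.23, with 11 negative and 3 positive. The 44 without had a median of 0.01, with 18 negative and 26 positive, and class and suffix were not separated. Over all 58 the median was -0.00051, with 29 negative and 29 positive, against 0.02 over all 54613 probe sets, of which 45.1% were negative and 54.9% positive. Of the 15 above the medians 11 were negative and 4 positive, where all 27621 probe sets above the medians split into 50.9% and 49.1%.

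No histone probe set passed the test over the whole array. In limma with Benjamini-Hochberg adjustment 0 of 58 had an adjusted p under 0.05, against 0 of 54613 in all (0%), and the lowest adjusted p among the histones was 0.562. The unadjusted p was under 0.05 for 12 of 58, of which 9 were lower and 3 higher on aligned fibers. Over all probe sets 8.6% reached that limit, 4.67% lower and 3.94% higher. Of the 9 that were lower, 8 were H2B probe sets and 1 was H2AC17. The 3 that were higher were H1 probe sets. Groups did not overlap in 16 of 58, with all aligned arrays below all random ones in 10 and above them in 6, where the shares over all probe sets were 6.54% and 7.78%. The count of 12 was 7 without random 3, where 4.86% of all probe sets reached the limit. Without both arrays numbered 3, a setting chosen after the data were seen, it was 4, with 3.83% of all probe sets. Copies of these genes are nearly alike in sequence, so members are not independent of each other.

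**Figure D1:**
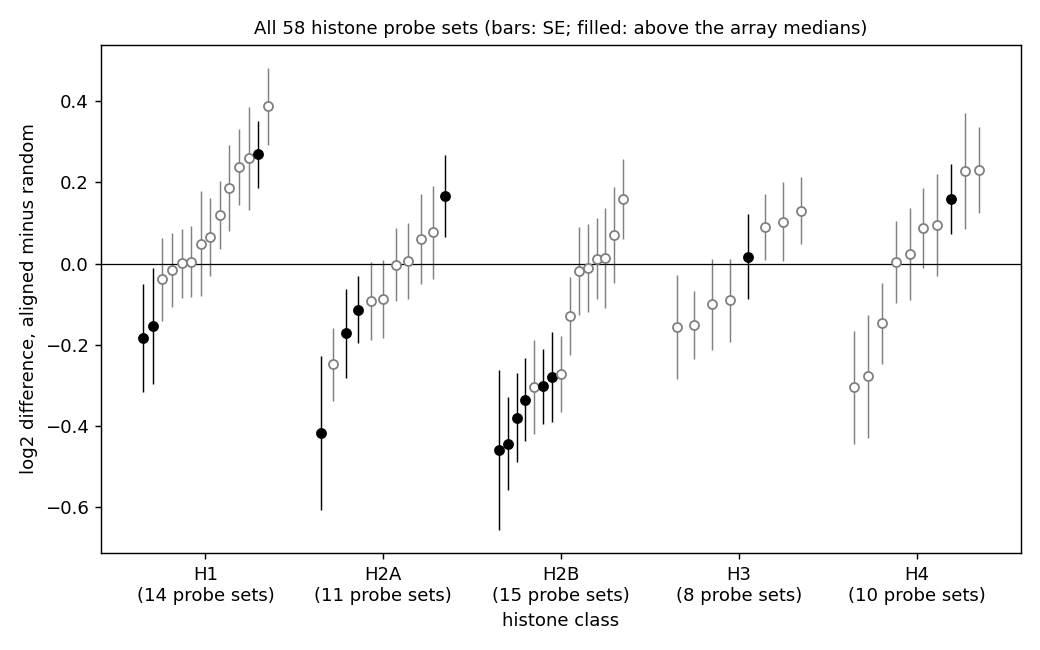
Log2 difference between aligned and random fibers (y axis) for all 58 histone probe sets, sorted within each class (x axis); bars are standard errors from limma and filled points lie above the array medians. The 6 filled H2B points lie between -0.46 and -0.28, while H1, H2A, H3 and H4 have points on both sides of 0.

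H2B pairs with H2A in the nucleosome. All 6 probe sets above the medians were lower on aligned fibers, by 1.21-fold to 1.37-fold. Each had an unadjusted p under 0.05, from 0.00398 to 0.0454, and an adjusted p of 0.562 to 0.578 in limma. Among all probe sets above the medians 10.5% had an unadjusted p under 0.05, 6.37% lower and 4.12% higher, and in 8.86% all aligned arrays lay below all random ones and in 7.61% above. Of all 15 H2B probe sets, 8 were lower at the unadjusted limit and 0 were higher, and in 7 of the 15 the groups did not overlap. The class was singled out after these values were seen. Leaving out aligned 2 or random 3 made the count of 8 lower H2B probe sets 5, leaving out random 1 made it 4, and leaving out both arrays numbered 3 made it 1. The share of all probe sets at that limit, in either direction, was then 8.17%, 4.86%, 8.26% and 3.83%, in that order.

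H2BC12 is read by a probe set whose name carries no suffix for shared sequence. It read 8.78, 8.62 and 8.61 on aligned fibers 1 to 3, and 8.92, 9.12 and 9.31 on random fibers 1 to 3. The 3 aligned arrays lay below the 3 random ones, and the highest random value was that of random 3. The means were 8.67 ± 0.10 and 9.11 ± 0.20 (SD, n = 3), a log2 difference of -0.44 ± 0.11 (SE), or 1.36-fold higher on random fibers. With any 1 array left out the difference stayed between -0.54 and -0.35, and without both arrays numbered 3 it was -0.32.

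H2BC12L, a gene on chromosome 21 named for its likeness to H2BC12, gave 7.74, 7.63 and 7.51 on aligned and 7.87, 7.96 and 8.19 on random fibers. These groups did not overlap either, with a difference of -0.38 ± 0.11 (SE), which was -0.23 without both arrays numbered 3. Its probe set has the suffix _x_at, which marks probes that also match other transcripts.

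H2BC6 read 6.29, 6.25 and 6.18 on aligned and 6.42, 6.56 and 6.65 on random fibers, again with no overlap. Its difference was -0.30 ± 0.09 (SE), or 1.23-fold. The aligned arrays had a mean of 6.24 ± 0.05 and the random ones of 6.54 ± 0.12 (SD, n = 3).

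H2BC5 has 2 probe sets above the medians, both with the _x_at suffix. One gave 6.58, 6.71 and 6.58 on aligned against 6.83, 6.92 and 7.13 on random fibers, a difference of -0.33 ± 0.10 (SE). The other gave 6.75, 6.57 and 6.35 against 6.81, 6.83 and 6.87, a difference of -0.28 ± 0.11 (SE). Groups did not overlap in either, but the array that set the gap differed. In the first random 3 was the farthest from the rest, and in the second it was aligned 3, without which the difference was -0.17.

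H2BC9 had the largest H2B difference and the widest spread. It read 6.33, 6.11 and 5.58 on aligned and 6.62, 6.17 and 6.62 on random fibers. Aligned 1 lay above random 2, so the groups overlapped. The difference of -0.46 ± 0.20 (SE) became -0.25 without aligned 3, -0.62 without aligned 1 and -0.17 without both arrays numbered 3.

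**Figure D2:**
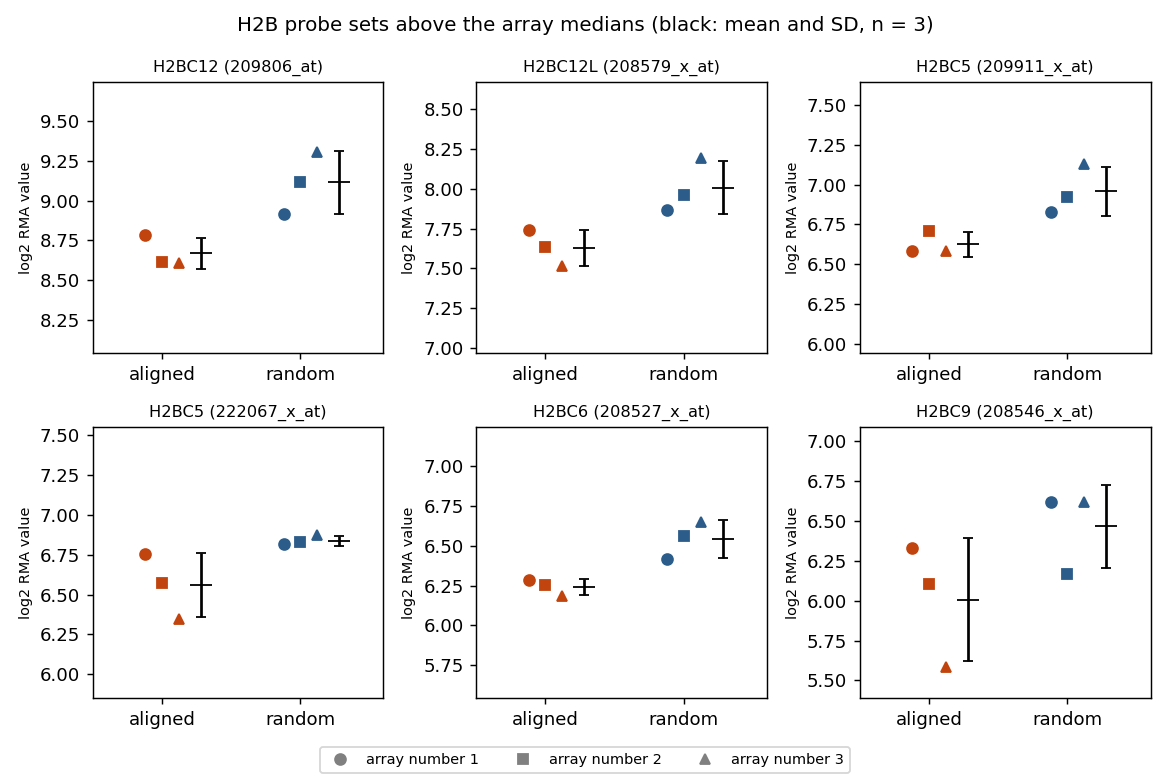
Log2 RMA values (y axis) of the 6 H2B probe sets above the array medians on aligned and random fibers (x axis); symbols give the array number, and the black marks are means with SD (n = 3). All panels span the same range of log2 units, and the groups overlap only for H2BC9.

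The mean of the 6 H2B probe sets was 7.08, 6.98 and 6.80 on aligned 1 to 3 and 7.24, 7.26 and 7.46 on random 1 to 3. Aligned 3 was the lowest and random 3 the highest. Between arrays of the same number all 18 differences of these probe sets were negative, with a median of -0.13 for number 1, -0.28 for number 2 and -0.61 for number 3. The labels do not say what a number stands for. The other 9 probe sets above the medians had means of 7.13, 7.03 and 7.01 on aligned and 7.06, 7.10 and 7.15 on random fibers, and these overlap. Of the 6 H2B probe sets, 5 have the suffix _x_at, so they are not independent readings, and how much of their signal comes from shared transcripts was not tested. H2BC12 is the one without it. Among the other 9 probe sets above the medians, those of H2AC14 and H3C8 have the suffix _x_at. Those of H2AC6 and H1-10 have the suffix _s_at.

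**Figure D3:**
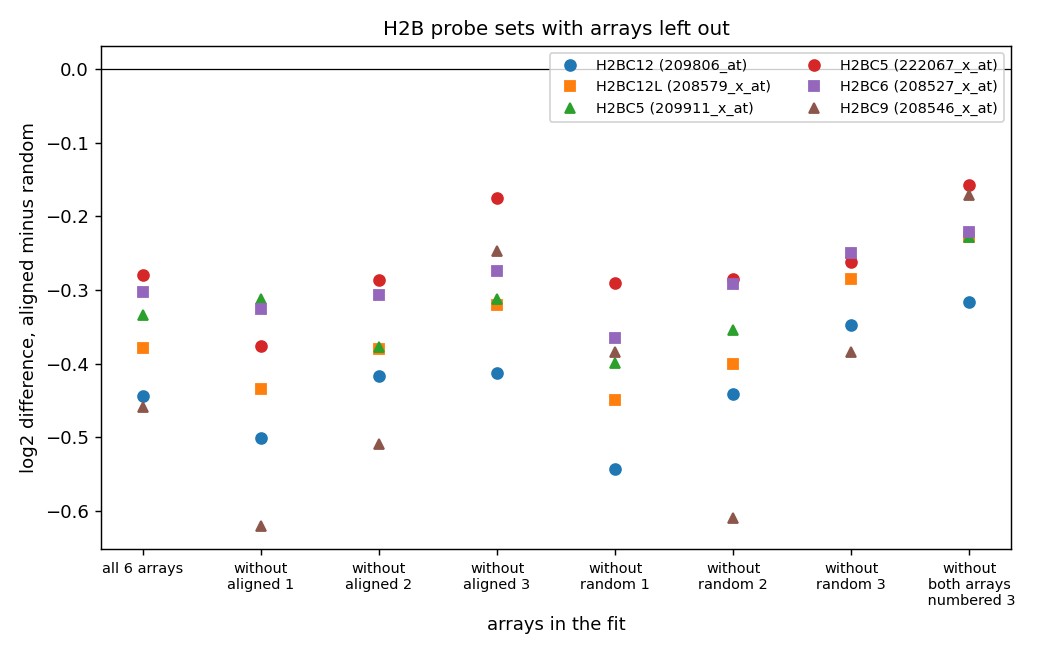
Log2 difference between aligned and random fibers (y axis) of the 6 H2B probe sets with all arrays, with each array left out and without both arrays numbered 3 (x axis). All values lie below 0, from -0.62 for H2BC9 without aligned 1 to -0.16 for H2BC5 without both arrays numbered 3.

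Promoters of the 4 H2B genes above with an entry in the table are shown because their probe sets were lower together, beside H2AC6 of the H2A class and H1-3, whose difference ran the other way. Each line holds the 130 bases before the RefSeq start, 5′ to 3′ on the gene's own strand in GRCh38.p14. Capitals mark ATTTGCAT (the octamer, the site of the POU2F1 factor that H2B promoters are known for), CCAAT and TATAAA on either strand.
H2BC12 (chr6:27146859-27146988, minus strand): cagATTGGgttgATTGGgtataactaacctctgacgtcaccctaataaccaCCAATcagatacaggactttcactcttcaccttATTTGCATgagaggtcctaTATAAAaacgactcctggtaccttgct
H2BC6 (chr6:26183631-26183760, plus strand): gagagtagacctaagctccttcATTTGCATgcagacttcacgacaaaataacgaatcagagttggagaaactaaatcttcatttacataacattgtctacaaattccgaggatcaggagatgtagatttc
H2BC9 (chr6:26251484-26251613, plus strand): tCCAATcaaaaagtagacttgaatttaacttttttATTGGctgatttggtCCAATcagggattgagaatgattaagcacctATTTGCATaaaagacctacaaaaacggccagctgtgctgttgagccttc
H2BC5 (chr6:26157991-26158120, plus strand): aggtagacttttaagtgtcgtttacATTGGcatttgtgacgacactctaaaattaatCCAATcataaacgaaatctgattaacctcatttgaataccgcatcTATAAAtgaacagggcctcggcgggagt
H2AC6 (chr6:26124042-26124171, plus strand): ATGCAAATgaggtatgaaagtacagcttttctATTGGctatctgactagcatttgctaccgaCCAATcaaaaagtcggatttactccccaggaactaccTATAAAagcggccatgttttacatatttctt
H1-3 (chr6:26234988-26235117, minus strand): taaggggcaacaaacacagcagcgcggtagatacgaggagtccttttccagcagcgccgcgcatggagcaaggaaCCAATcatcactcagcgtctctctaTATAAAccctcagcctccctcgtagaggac

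The octamer begins 46 bases before the start of H2BC12 and 49 before that of H2BC9, but 108 before that of H2BC6. In windows of 300 bases (250 before and 50 after the start) it was present on either strand for 10 of the 13 H2B members with an entry, for 6 of 8 H2A members and for none of 9 H1, 6 H3 and 7 H4 members, against 2.19% of 27305 genes. CCAAT was present for 37 of 43 members, against 39.7% of all genes, and TATAAA for 28 of 43, against 14.0%. For H2BC6 both were found in the wider window but not in the 130 bases printed. Windows of H2A and H2B genes can overlap, since neighbours are transcribed away from each other. This was so for 4 pairs of members, of which H2BC4 with H2AC6, H2AC14 with H2BC14 and H2AC17 with H2BC17 share an octamer. Only exact ATTTGCAT on either strand was counted as the octamer. H2BC5 has none in its window, though its printed line holds the near match atttgaat, and its probe sets were lower as well. Of 10 probe sets for H2B genes with an exact match 5 were lower at the unadjusted limit. Of 4 for H2B genes without one 2 were, both of them for H2BC5 and with the suffix _x_at. Over all probe sets 4.67% were lower at that limit. A link between the octamer and these differences was not tested.

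H2A, the partner of H2B, had 4 probe sets above the medians, 0 of them at an unadjusted p under 0.05. Outside the members, probe sets above the medians annotated to both H2AC18 and H2AC19 were lower at that limit. Their differences were -0.30 ± 0.11 and -0.31 ± 0.13 (SE), and a dimmer probe set for the same genes differed by 0.07 ± 0.08 (SE). Among the H2A members H2AC6 had the largest difference. It read 6.59, 6.84 and 7.23 on aligned and 7.02, 7.27 and 7.62 on random fibers. The groups overlapped, since aligned 3 lay above random 1, and the difference was -0.42 ± 0.19 (SE), with an unadjusted p of 0.0558 and an adjusted p of 0.587 in limma. Between arrays of the same number the difference was -0.43, -0.43 and -0.39. Aligned 3 was the highest array of its group for H2AC6, and the difference was -0.59 without it, -0.27 without aligned 1 and -0.26 without random 3.

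H2AC25 is an H2A gene on chromosome 1. It gave 7.63, 7.50 and 7.26 on aligned and 7.57, 7.70 and 7.63 on random fibers, with overlap and a difference of -0.17 ± 0.11 (SE), which was -0.07 without aligned 3. H2AC14 gave 6.96, 6.84 and 6.85 against 6.97, 7.05 and 6.97. These groups did not overlap, though aligned 1 and random 1 were 0.01 apart, with a difference of -0.11 ± 0.08 (SE). H2AC4 gave 5.76, 5.79 and 5.59 against 5.40, 5.58 and 5.66, a difference of 0.17 ± 0.10 (SE) with overlap, which was 0.10 without random 1 and 0.28 without both arrays numbered 3. Of the 7 dimmer H2A probe sets, for H2AC5P, H2AC8, H2AC15, H2AC16, H2AC17 and H2AC25, differences ran from -0.25 to 0.08. The lowest was H2AC17, with 4.61, 4.47 and 4.52 on aligned and 4.71, 4.73 and 4.90 on random fibers. Its groups did not overlap, and its unadjusted p was 0.0233.

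H3 and H4, which form the inner tetramer of the nucleosome, each had 1 probe set above the medians. H3C8 read 6.54, 6.23 and 6.21 on aligned and 6.30, 6.27 and 6.35 on random fibers. Aligned 1 was the highest and aligned 3 the lowest of the 6, and the difference of 0.02 ± 0.11 (SE) turned to -0.09 without aligned 1. H4C9 read 6.48, 6.57 and 6.49 on aligned and 6.34, 6.46 and 6.26 on random fibers. Here the aligned arrays lay above the random ones, by 0.16 ± 0.09 (SE), with an unadjusted p of 0.101. The dimmer H3 probe sets, for H3C1, H3C2, H3C3, H3C6, H3C7 and H3C11, differed by -0.16 to 0.13. The dimmer H4 probe sets, for H4C1, H4C4, H4C5, H4C7, H4C8, H4C10P, H4C11 and H4C13, differed by -0.30 to 0.23. None of the 18 H3 and H4 probe sets had an unadjusted p under 0.05. The lowest H4 difference was that of H4C4, with 4.03, 4.30 and 3.86 against 4.14, 4.48 and 4.49, which overlap (limma, unadjusted p = 0.0573).

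Of the 14 linker histone probe sets 3 had an unadjusted p under 0.05, all higher on aligned fibers. H1-3, a linker histone of dividing cells, read 5.73, 5.72 and 5.86 on aligned and 5.48, 5.53 and 5.48 on random fibers. The groups did not overlap, and the difference was 0.27 ± 0.08 (SE), or 1.21-fold higher on aligned fibers, with an unadjusted p of 0.0102 and an adjusted p of 0.562 in limma. It counts as above the medians through the 3 aligned arrays alone, so on random fibers it lay below them. H1-2, another linker histone of dividing cells, read 8.78, 8.42 and 8.21 on aligned and 8.74, 8.61 and 8.51 on random fibers. These overlapped, and the difference of -0.15 ± 0.14 (SE) was -0.02 without aligned 3. H1-10 read 9.69, 9.39 and 9.40 against 9.70, 9.45 and 9.89, a difference of -0.18 ± 0.13 (SE), which was -0.08 without random 3.

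The dimmer H1 probe sets differed by -0.04 to 0.39, and 9 of 11 were positive. They belong to H1-1, H1-4, H1-5, H1-6, H1-7, H1-8, H1-9P and H1-10-AS1. H1-7, a linker histone of sperm precursors, had 2 of its 3 probe sets at the unadjusted limit. One read 5.14, 4.97 and 4.99 on aligned and 4.71, 4.52 and 4.71 on random fibers, a difference of 0.39 ± 0.10 (SE). The other read 5.22, 5.22 and 5.29 against 4.92, 5.16 and 4.94, a difference of 0.24 ± 0.09 (SE). Groups did not overlap in either, but all 6 arrays lay below their medians, and the third H1-7 probe set differed by 0.07, which was -0.02 without random 3. Over all 26992 probe sets not above the medians the median difference was 0.03, with 16399 positive and 10593 negative. H1-4, chosen after its values were seen because it fell just short of the limit with 2 arrays above their medians, read 6.03, 5.65 and 5.65 on aligned and 5.53, 5.65 and 5.37 on random fibers, a difference of 0.26 that was 0.13 without aligned 1.

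**Figure D4:**
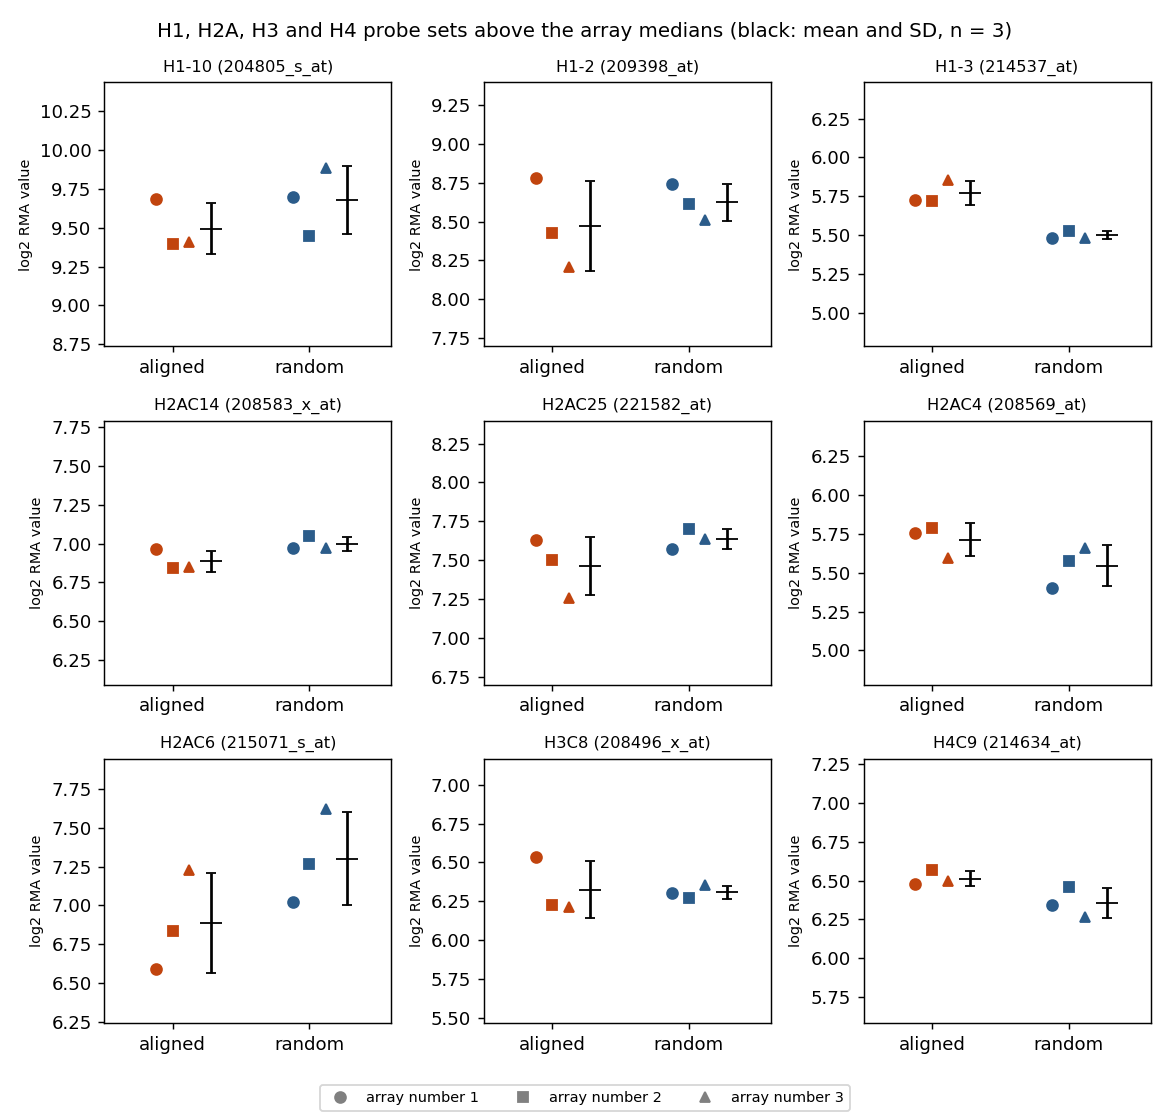
Log2 RMA values (y axis) of the 9 probe sets of H1, H2A, H3 and H4 above the array medians on aligned and random fibers (x axis); symbols give the array number, and the black marks are means with SD (n = 3). Groups separate upward for H1-3 and H4C9 and downward for H2AC14, and overlap in the other 6 panels.

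Dim H2B probe sets were divided. Of 9, for H2BC1, H2BC3, H2BC4, H2BC11, H2BC13, H2BC14, H2BC15, H2BC17 and H2BC21, 5 were negative and 4 positive, from -0.30 to 0.16. H2BC11 read 3.85, 3.65 and 3.81 on aligned and 4.07, 3.94 and 4.11 on random fibers, and the groups did not overlap (unadjusted p = 0.0186). H2BC4, the neighbour of H2AC6, read 3.03, 3.41 and 3.05 on aligned and 3.47, 3.51 and 3.42 on random fibers, again without overlap (unadjusted p = 0.0273). Both lay far below the array medians, of 5.63 to 5.66.

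Genes that make, process and place histones were set beside the histones themselves, each gene by its brightest probe set. Over all 19775 genes so represented the median difference was 0.03, and 8.91% reached an unadjusted p under 0.05, 4.34% lower and 4.56% higher. Differences were negative for 42% and positive for 58%, and aligned arrays lay all below the random ones for 6.88% and all above for 9.08%. None of the 6 lists had a gene with an adjusted p under 0.05 in limma.

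Among genes of the histone locus body and of transcription control, 13 were measured, of which 1 was lower at the unadjusted limit and 0 were higher, near the share over all genes. The list's median was -0.02. NPAT, the activator of histone genes at their nuclear bodies, differed by 0.01 ± 0.08 (SE), from -0.04 to 0.04 with 1 array left out. The cyclin CCNE2 was the 1 gene lower, with 8.29, 8.19 and 7.93 on aligned and 8.38, 8.39 and 8.74 on random fibers and a difference of -0.36 ± 0.13 (SE). Its groups did not overlap, and the extremes were aligned 3 and random 3, as in the H2B mean. Without both arrays numbered 3 it was -0.14. CCNA2, the cyclin of S phase, overlapped between groups, at -0.18 ± 0.12 (SE), which was -0.11 without aligned 3, -0.07 without random 3 and 0.01 without both. CASP8AP2, which works with NPAT and in histone mRNA processing, differed by -0.15 ± 0.08 (SE) without overlap, and by -0.10 without aligned 3.

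Processing and decay of histone mRNA gave single genes in either direction. Of 19 processing genes 1 was higher and 0 were lower at the unadjusted limit, with a median of 0.03. That gene was ZNF473, a zinc finger protein of the histone processing complex, with 8.30, 8.13 and 8.55 on aligned and 8.24, 7.85 and 7.79 on random fibers. Its groups overlapped, and its difference was 0.37 ± 0.15 (SE), which was 0.17 without both arrays numbered 3. CPSF4, a subunit of the general cleavage complex, differed by 0.20 ± 0.09 and SLBP, the stem-loop binding protein, by -0.08 ± 0.09 (SE), the latter by -0.03 without aligned 3 and -0.04 without random 1.

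Of 11 genes of translation and decay 1 was lower at the unadjusted limit and 0 were higher, with a median of -0.06. DCP2, the decapping enzyme, read 9.79, 9.77 and 9.41 on aligned and 10.02, 10.16 and 10.15 on random fibers. Its groups did not overlap, and the difference was -0.45 ± 0.12 (SE), with an unadjusted p of 0.00372 and an adjusted p of 0.562 in limma. TUT4, which adds uridines to RNA ends, differed by -0.19 ± 0.09 and MIF4GD, a partner of SLBP in translation, by -0.13 ± 0.10 (SE). The first was -0.12 without random 3 and the second -0.03 without aligned 3.

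Replacement histones, variants of which several are made outside S phase, had a negative difference in 7 of 8 measured genes, with a median of -0.07, and 1 was lower at the unadjusted limit. H2AX, the variant that is phosphorylated at DNA breaks, read 11.85, 11.84 and 11.60 on aligned and 11.89, 12.04 and 12.23 on random fibers, without overlap and with a difference of -0.29 ± 0.12 (SE). H2AZ2 differed by -0.21 ± 0.10 and the centromere histone CENPA by -0.30 ± 0.17 (SE). H2AZ2 was -0.13 without aligned 3. CENPA was -0.20 without aligned 3, -0.10 without random 3 and 0.0018 without both, so its value rests on the arrays numbered 3. Among 22 histone chaperones 1 was lower at the unadjusted limit and 0 were higher, with a median of -0.05. ASF1B, the chaperone of new H3 and H4 in dividing cells, was that gene, at -0.26 ± 0.11, while HIRA, which places H3.3 outside replication, differed by 0.20 ± 0.09 and its partner CABIN1 by -0.15 ± 0.08 (SE). ASF1B was -0.14 without random 3 and HIRA 0.13 without aligned 3.

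DNA replication genes had 15 of 22 negative differences and a median of -0.07, and 3 were lower at the unadjusted limit with 0 higher. PCNA, the clamp of the replication fork, read 11.82, 11.79 and 11.71 on aligned and 11.97, 12.01 and 11.98 on random fibers. Its groups did not overlap, with a difference of -0.22 ± 0.08 (SE). MCM4 of the replicative helicase differed by -0.22 ± 0.09 and TK1, thymidine kinase, by -0.24 ± 0.11 (SE), which was -0.16 without random 3. The median difference of the list between arrays of the same number was -0.0042, -0.12 and -0.16 for numbers 1, 2 and 3, beside the -0.13, -0.28 and -0.61 of the H2B probe sets above the medians. Whether the H2B values move with the share of cells in S phase was not tested.

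**Figure D5:**
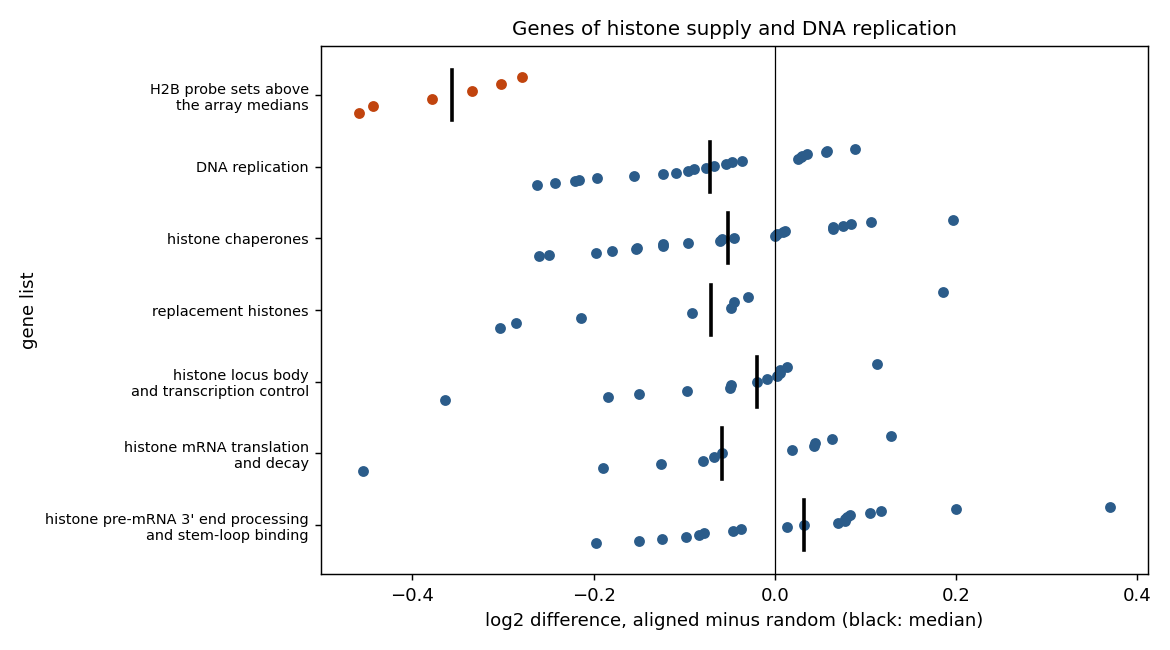
Log2 difference between aligned and random fibers (x axis) of each gene in 6 lists of histone supply and DNA replication, and of the 6 H2B probe sets above the medians (y axis); black bars are medians. List medians lie between -0.07 and 0.03, and that of the H2B probe sets lies at -0.36.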

How the data were processed

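The deposited table holds log2 signals computed by the authors. The submitters' processing notes name RMA, without a version in the sources used here. RMA corrects background, brings arrays to a common distribution and summarises probes. After sorting each array, the largest departure from the mean of its rank was 0.07, and 0 values were missing. No scanner file or detection call entered.

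The 62 control probe sets were set aside and all other 54613 entered, with no filter. Groups came from sample titles. Of the annotation, 41091 probe sets had 1 symbol, 1801 several and 11721 none, and all 58 histone probe sets matched RefSeq by gene identifier with 0 symbols changed. Aligned minus random was tested with limma 3.58.1 (lmFit, eBayes; R 4.3.3), two-sided, with 4 residual degrees of freedom before shrinkage and Benjamini-Hochberg adjustment over all 54613 at 0.05. Precision is limited by having 3 arrays a group, with a median standard error of 0.10, and p-values measure only the spread between these cultures. In a simulated table of 54613 probe sets, 76% of 100 shifted by a log2 of 1 and 96% of 100 shifted by 2 were recovered at the adjusted threshold. Its values were normal and independent, with spreads shuffled between probe sets and no array set apart as aligned 3 was. Of its unchanged probe sets 5.43% had an unadjusted limma p under 0.05, against 8.6% of all in the data. Differences in the data ran from -2.05 to 1.84 and 0 of 54613 passed, so the simulated recovery need not hold for these arrays. Histone differences ran from -0.46 to 0.39, and shifts of that size were not simulated, so their recovery is not known.

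Members, lists and tests were chosen with earlier results of these data known. Values are printed for all members above the medians, for the 6 other members with the smallest p and for the 3 genes of each list with the smallest p. NPAT, SLBP, H1-4 and the third H1-7 probe set lie outside that rule and were named after their values were seen. Promoters are RefSeq's, in GRCh38.p14, with 43 of 50 genes matched. Where a gene has several windows a motif in any of them was counted, and the first was printed and used for overlaps. Alternatives were filters on dim probe sets, the replicate number as a block, other scalings and priors, array weights, an ordinary two-sample test, omission of probe sets with shared sequence, 1 probe set per gene, and arrays left out.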

Additional observations from a re-analysis of the deposited data

How the results depend on the processing

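No alternative brought a histone probe set past an adjusted p of 0.05, and the lowest adjusted p under any of them was 0.192, for H2BC12 without aligned 1. The count of 12 at an unadjusted p under 0.05 was 6 of 15 with a filter at the array medians, 2 of 4 with a filter at the 75th percentile, 7 of 44 without probe sets of the suffixes _x_at and _s_at, 7 to 14 with 1 array left out and 4 without both arrays numbered 3. The share of all probe sets at that limit, 8.6% in the main fit, was 9.69% and 9.97% with the filters. It was 6.02% in the ordinary two-sample test, 4.86% to 12.7% with 1 array left out and 3.83% without both arrays numbered 3. The 8 lower H2B probe sets became 5 with the filter at the medians, 2 at the 75th percentile, 5 in the ordinary two-sample test, 3 without the suffixes, 4 to 7 with 1 array left out and 1 without both arrays numbered 3. The filters and the suffix rule leave fewer members, and leaving arrays out leaves fewer samples. The median over all members was -0.18 and -0.28 under both filters and -0.052 to 0.0015 with 1 array left out. The median over members above the medians was -0.18, and 0.0032 without the suffixes, where 6 probe sets remain. H3C8 turned to -0.0036 with array weights and ranged from -0.088 to 0.073 with 1 array left out. The other 14 probe sets above the medians kept their sign under every alternative run. The 6 other members with the smallest p were checked with arrays left out only, without a change of sign. Deviations from the group means correlated by 0.304, 0.190 and 0.061 over all probe sets between arrays numbered 1, 2 and 3, and by 0.408, 0.353 and 0.123 over those above the medians. The third value lies on either side of the limit of 0.1, so the numbers were not taken as pairs. With the replicate block 16 histone probe sets had an unadjusted p under 0.05, 11 lower and 5 higher, with 10.9% of all probe sets at that limit, 8 H2B probe sets were lower, and 0 passed the adjusted threshold. H2AC6 then had an unadjusted p of 0.00145 and an adjusted p of 0.431 in limma, against 0.0558 and 0.587 without the block.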

Other observations

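Another 20 probe sets are annotated to several histone genes at once and were left out of the comparison, since no single gene can be named from them. Of these, 16 had a negative difference, with a median of -0.14. In limma 4 were lower and 0 higher at an unadjusted p under 0.05, with 0 past the adjusted threshold. H2A genes gave a dim probe set for 6 genes (limma, unadjusted p = 0.0056). They also gave those above the medians for H2AC18 and H2AC19 (limma, unadjusted p = 0.0213 and 0.0499). The remaining probe set was for 5 H2B genes (limma, unadjusted p = 0.0209). Over all probe sets 45.1% were negative, and 4.67% were lower and 3.94% higher at that limit. Not above the medians were 15 of the 20, and over all such probe sets 10593 of 26992 were negative. The brightest of the 20, annotated to 14 H4 genes, read 12.04, 12.33 and 12.32 on aligned and 12.15, 12.34 and 12.52 on random fibers. It differed by -0.11 ± 0.12 (SE), with overlap. A probe set for 5 H2B genes read 5.90, 5.79 and 5.72 on aligned and 5.99, 6.02 and 6.23 on random fibers, a difference of -0.28 ± 0.10 (SE) without overlap. Another for the same 5 genes differed by -0.19 ± 0.15 (SE) with overlap, and a dim further one by -0.47 ± 0.22 (SE), also with overlap. A dim probe set for H2BC8 and H2BC11 differed by 0.12 ± 0.08 (SE), with all aligned arrays above all random ones. Another dim one for these 2 genes differed by -0.13 ± 0.12 (SE), with overlap. Probe sets annotated to both H2AC18 and H2AC19 differed by -0.30 ± 0.11 and -0.31 ± 0.13 (SE), while a dimmer one for the same genes differed by 0.07 ± 0.08. The widest difference of the 20 was that of a probe set for 6 H2A genes, at -0.56 ± 0.15 (SE), with 3.52, 3.66 and 3.26 on aligned and 3.99, 3.79 and 4.32 on random fibers, all below the array medians. These probe sets share sequence with members above and are not independent of them.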
